A study of Mus musculus with 2 samples.

Results

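The genes described here encode the enzymes and carriers of the methionine cycle, of transsulfuration, of serine synthesis and of folate-dependent one-carbon metabolism. They were chosen by gene symbol from a list of 31, and all 31 were found among the 43346 features of the gene table. The list leaves out the subunits of the methionine adenosyltransferase that most tissues use. RNA came from X63/0 (X63-Ag8.653), a mouse plasmacytoma cell line, which is a malignant line of the plasma cell lineage. The untreated culture and the cycloleucine culture, exposed to 30 mM cycloleucine for 3 h, shared the same serum-containing Iscove medium with antibiotics and 2-mercaptoethanol. Cycloleucine, a synthetic amino acid, blocks methionine adenosyltransferase, and the series asks how the transcriptome differs when S-adenosylmethionine (SAM) is lowered. The design text speaks of triplicate experiments, and 1 library per group was analysed here, 2 in all. The differences below therefore lack replicates, and none was tested between conditions.

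In the methionine cycle, methionine is joined to ATP to make SAM, the methyl donor of most methyltransferases. Giving up the methyl group leaves S-adenosylhomocysteine, which is split into adenosine and homocysteine, and homocysteine is either methylated back to methionine or drained through transsulfuration towards cysteine. The folate pathway takes carbon units, mostly from serine, and carries them through parallel sets of enzymes in mitochondria and cytosol to purine synthesis, thymidylate synthesis and homocysteine remethylation. Proliferating cells commonly run the mitochondrial set towards formate, which the cytosolic set then uses.

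The libraries had 27127865 (untreated) and 31951946 (cycloleucine) gene reads. The 31 genes took 0.487% of exon reads in the first and 0.478% in the second. Plasma cell markers matched the label, with 6 of 6 at an RPKM of at least 1 and a summed RPKM of 463 and 466. RPKM is a read count scaled by exon length and by all gene reads of the library, so it is a relative level. In bulk RNA, fewer cells with a transcript and less of it per cell cannot be told apart. Hepatocyte markers, which bear on the liver-type genes of the list, had 6 and 10 exon reads over 6 genes, with Ttr and Serpina1a at 0. T and natural killer cell markers had 17 and 20 reads, myeloid markers 93 and 106, and fibroblast markers 42 and 57, with 0 of 5 genes in each list at an RPKM of 1. Of the B cell markers reported here, Cd79b and Ms4a1 reached that level and Cd79a and Pax5 did not.

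In the untreated library 22 of the 31 genes had an RPKM of at least 1, the level taken here as expressed, against 30.2% of 29646 annotated features. The other 9 had at most 81 exon reads over both libraries and at most 0.200 RPKM in either, well under the limit. The lowest gene above it was Ahcyl2, at 1.30 RPKM. The untreated levels thus fell into an expressed and a near-silent group, and every one of the 9 stayed under an RPKM of 1 in the cycloleucine library. Among the 9, the level of Mthfs is in doubt because its reads are shared with a near-identical gene, as given below.

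**Figure D1:**
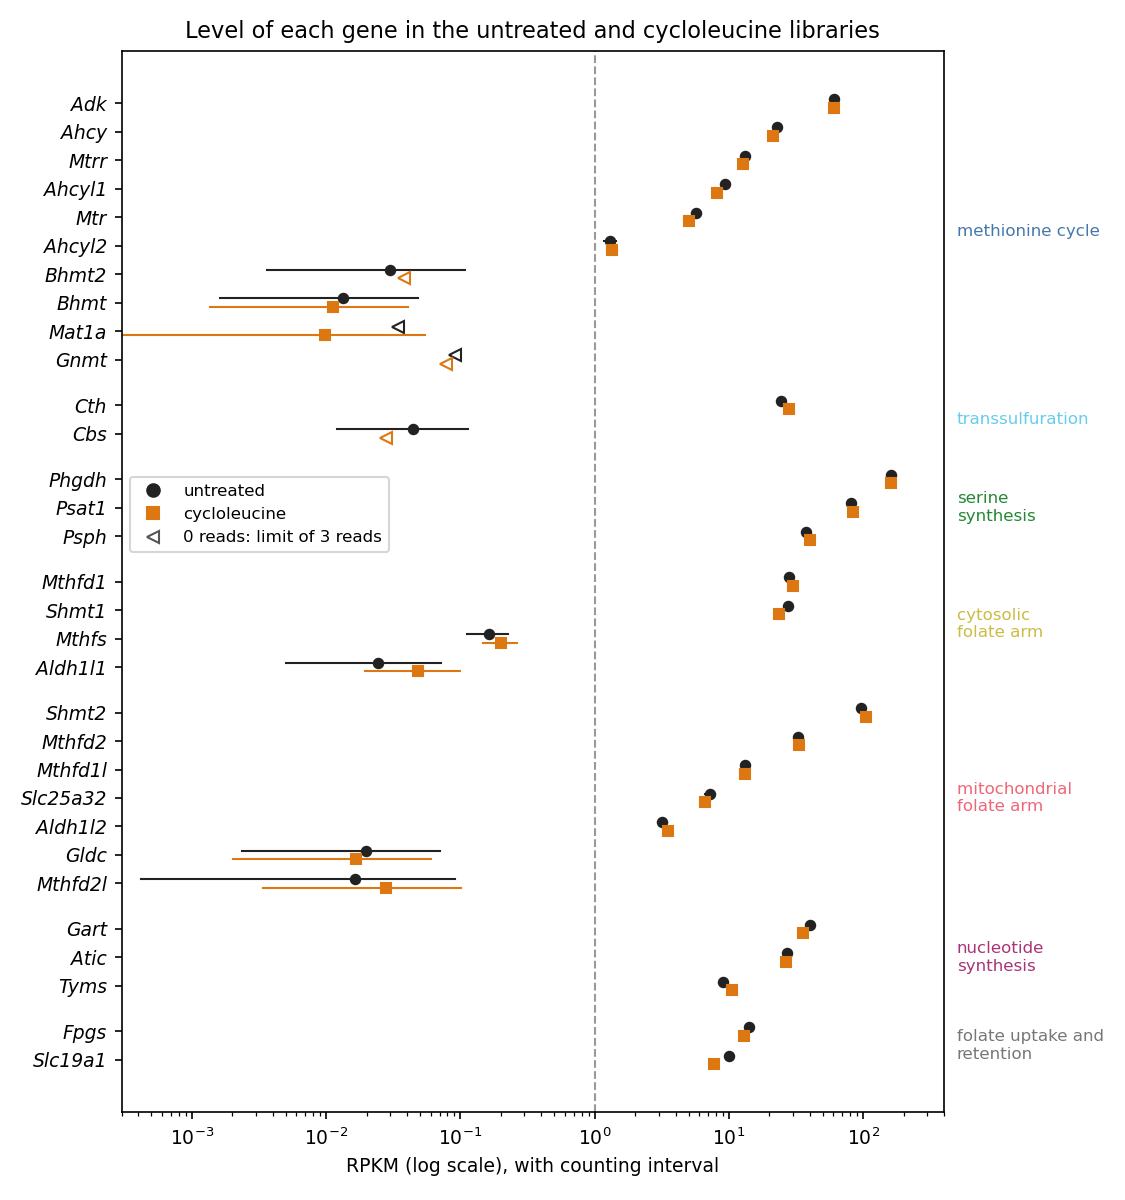
RPKM of the 31 genes (log scale) in the untreated (circles) and cycloleucine (squares) library, by arm of the pathway, with 95% counting intervals as lines. Open triangles mark 0 reads, drawn at the RPKM that 3 reads would give, and the dashed line marks an RPKM of 1. The 22 expressed genes lie to its right in both libraries and the other 9 at 0.200 or below.

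Promoter sequences are printed for the near-silent genes Bhmt and Gnmt and for the pair of serine hydroxymethyltransferase genes that are compared further on. These 4 genes do not stand for the near-silent and the expressed group. The windows run from 250 bases before to 50 after a RefSeq start (GRCm38.p6, the same sequence build as mm10), are written 5′ to 3′ along the gene, and have each CpG in capitals. All 4 genes lie on the minus strand. Shmt1 (chr11:60811216-60811515) and Shmt2 (chr10:127522395-127522694) were expressed, and Bhmt (chr13:93637709-93638008) and Gnmt (chr17:46729116-46729415) were not.
Shmt1: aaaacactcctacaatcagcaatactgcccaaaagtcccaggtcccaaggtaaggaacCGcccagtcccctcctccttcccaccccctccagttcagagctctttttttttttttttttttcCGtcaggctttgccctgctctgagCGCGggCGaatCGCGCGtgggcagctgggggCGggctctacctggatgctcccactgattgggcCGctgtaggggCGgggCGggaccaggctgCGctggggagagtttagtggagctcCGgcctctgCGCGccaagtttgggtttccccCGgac
Shmt2: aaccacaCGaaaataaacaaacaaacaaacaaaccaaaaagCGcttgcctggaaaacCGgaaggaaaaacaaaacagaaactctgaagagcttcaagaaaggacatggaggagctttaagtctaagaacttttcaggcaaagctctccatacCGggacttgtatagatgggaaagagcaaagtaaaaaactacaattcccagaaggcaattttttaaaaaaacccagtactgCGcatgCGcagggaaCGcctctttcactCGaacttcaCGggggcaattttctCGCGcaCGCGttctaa
Bhmt: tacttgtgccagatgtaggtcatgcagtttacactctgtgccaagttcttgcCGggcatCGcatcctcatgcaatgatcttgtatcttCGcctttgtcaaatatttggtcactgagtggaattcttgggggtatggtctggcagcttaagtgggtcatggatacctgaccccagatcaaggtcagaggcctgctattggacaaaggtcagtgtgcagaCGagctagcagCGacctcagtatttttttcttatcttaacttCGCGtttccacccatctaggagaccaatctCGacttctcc
Gnmt: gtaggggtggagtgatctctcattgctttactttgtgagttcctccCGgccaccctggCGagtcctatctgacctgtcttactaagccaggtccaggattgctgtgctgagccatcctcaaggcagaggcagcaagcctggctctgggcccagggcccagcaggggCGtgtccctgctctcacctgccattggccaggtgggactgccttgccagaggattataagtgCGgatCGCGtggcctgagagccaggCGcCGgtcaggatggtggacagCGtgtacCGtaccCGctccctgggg
Shmt1 held 17 CpGs and Shmt2 13, against 8 in Bhmt and 11 in Gnmt. Of the 31 genes, 27 matched the promoter table, with 36 windows. The 19 expressed genes had a median of 19 CpGs (5 to 38) and the 8 near-silent genes a median of 15 (8 to 26), and these ranges overlapped. Over all annotated genes with a window, the medians were 22 for 6744 expressed and 6 for 11167 not expressed genes. The median of the near-silent members lay above that of all unexpressed genes. Among them, Bhmt2 had 26 CpGs, Mthfs 24.5 (the median of its windows), Cbs 22 and Mthfd2l 19. Among the expressed, Ahcyl2 had 5, Mthfd1l 8 and Tyms 9. The E-box letters CACGTG, a palindrome that MYC and related factors can bind, were found in 3 of the 27 genes, Cbs, Tyms and Atic, and in 7.15% of all 32851 windows. The letters TGATGNAA, the core of the composite element read by ATF4 with C/EBP factors, were found on either strand in 0 of the 27 and in 3.97% of all windows. The counts of the 27 are per gene, over any of its windows, and the percentages are per window, so the units differ. These are matches of letters in a 300-base window, not measured sites.

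Of the methionine cycle genes, 6 of 10 were expressed. Adk, which removes the adenosine released from S-adenosylhomocysteine, was the highest, at 60.9 RPKM in both libraries. Ahcy, the hydrolase of S-adenosylhomocysteine, stood at 22.9 and 21.1 RPKM. Mtrr, which keeps methionine synthase in its active state, stood at 13.2 and 12.6 RPKM, and the synthase gene Mtr itself at 5.72 and 5.06. Both parts of the cobalamin-dependent remethylation route were thus present. Of the genes for Ahcy-like regulatory proteins, Ahcyl1 stood at 9.27 and 8.19 RPKM and Ahcyl2 at 1.30 and 1.35.

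The liver-type genes of the cycle were near 0. Mat1a, the SAM synthetase gene of hepatocytes, had 0 and 1 exon reads, and Gnmt, the glycine N-methyltransferase that disposes of excess SAM, had 0 and 0. A count of 0 allows up to 3 reads, which is 0.0345 RPKM for Mat1a in the untreated library and 0.0917 for Gnmt. Bhmt, which remethylates homocysteine with betaine, had 2 and 2 exon reads, and its relative Bhmt2, which uses S-methylmethionine, had 2 and 0. Bhmt and Bhmt2 thus had few exon reads, and the genes of the cobalamin-dependent route had 696 or more in either library.

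Transsulfuration was split between its 2 steps. Cbs, which condenses homocysteine with serine, had 4 exon reads in the untreated library, 0.0441 RPKM (0.0120 to 0.113), and 0 in the cycloleucine library, where 3 reads would be 0.0281 RPKM. Cth, which cleaves the product to cysteine, had 1498 and 2017 exon reads, 24.4 and 27.9 RPKM. In the untreated library the level of Cth per length was 553 times that of Cbs, a ratio that rests on those 4 reads. Of the pair, only the second enzyme was expressed in these cells at the RNA level.

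Serine synthesis from glycolytic intermediates had all 3 genes expressed. Phgdh, which commits 3-phosphoglycerate to serine, stood at 162 RPKM in both libraries, rank 180 of 29646 annotated features in the untreated library. Psat1, the aminotransferase of the second step, stood at 80.4 and 84.4 RPKM, and Psph, the phosphatase of the last step, at 37.3 and 40.4. The 3 levels followed the order of the steps.

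In the cytosolic folate arm 2 of 4 genes were expressed. Mthfd1, the trifunctional enzyme that loads formate onto tetrahydrofolate, stood at 28.1 and 30.2 RPKM, and Shmt1 at 27.5 and 23.7. Aldh1l1, which burns off formyl groups as carbon dioxide, had 3 and 7 exon reads. Mthfs, which returns stored 5-formyltetrahydrofolate to the pool, had 33 and 48 exon reads, 0.162 and 0.200 RPKM. Only 9 and 19 of these were uniquely placed. The near-identical gene Mthfsl, with 99.4% identity over 801 bases, had 83 and 97 exon reads, 1.45 and 1.44 RPKM. Of those, 21 and 29 were unique. How reads matching both genes were assigned was not given in the sources used here, so the low level of Mthfs carries that doubt.

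In the mitochondrial arm 5 of 7 were expressed, and Shmt2 was the most abundant folate enzyme gene of all. It stood at 96.9 and 105 RPKM, 3.52 times the level of Shmt1 per length in the untreated library. Mthfd2, the dehydrogenase and cyclohydrolase of dividing cells, stood at 32.4 and 33.0 RPKM, while its relative Mthfd2l had 1 and 2 exon reads. Mthfd1l, which releases formate, stood at 13.1 and 13.1 RPKM. Slc25a32, the mitochondrial folate carrier, stood at 7.20 and 6.61 RPKM, and Aldh1l2, the mitochondrial counterpart of Aldh1l1, at 3.18 and 3.52. Gldc, the decarboxylase of the glycine cleavage system, had 2 and 2 exon reads. The route from serine through Shmt2, Mthfd2 and Mthfd1l to formate was thus complete at the RNA level, and the gene of the first enzyme that draws carbon units from glycine had an exon level near 0. Between paralogues, the expressed partner was the mitochondrial one for the formyl dehydrogenases, where Aldh1l1 was near 0, and both partners were expressed for the hydroxymethyltransferases.

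All 3 nucleotide synthesis genes that use folate were expressed. Gart, with folate-dependent and other steps of purine synthesis, stood at 39.8 and 35.8 RPKM. Atic, which completes the purine ring, stood at 27.1 and 26.7, and Tyms, which makes thymidylate, at 9.0 and 10.6. Fpgs, which adds the glutamate tail that holds folate in the cell, stood at 14.0 and 12.8 RPKM. Slc19a1, the reduced folate carrier of the plasma membrane, stood at 10.0 and 7.76.

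The ratio of the cycloleucine to the untreated RPKM could be measured in the 22 expressed genes, which had from 932 to 23779 exon reads over both libraries. All lay between 0.773 and 1.18. With a size rule of 1.5-fold, 0 of 22 were higher, against 3.28% of the 9613 features measured, and 0 were lower, against 2.72%. With 1.2-fold, 0 were higher, against 13.4%, and 1 was lower, against 11.5%. These shares are not matched for depth, since features entered from 50 reads up and the 22 genes had 932 or more. Of the 9613 measured features, 50.9% had a ratio above 1. That share applies to every later count of exon ratios by side of 1. Among the 22 genes, 9 lay above 1 and 13 below, or 12 below without Ahcy, whose reads are shared with a copy. From uniquely placed reads, 12 lay above and 10 below, with Adk, Mthfd1l and Atic on the other side at log2 ratios of 0.03, on a scaling that put the median of all measured annotated features at 0.04. Over the 22 genes the median log2 ratio from all exon reads was -0.0012, where that of all measured features was 0.0036. For scale, Mat2a, the catalytic SAM synthetase subunit gene that the list leaves out and that is named here outside the naming rule, had a ratio of 2.56 (71.2 and 182 RPKM).

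Intervals given here are 95% exact (Clopper-Pearson) counting intervals, which cover neither variation between cultures nor PCR duplicates. Among the 21 genes with at least 1000 exon reads over both libraries, the interval lay wholly above 1 in 6 and wholly below 1 in 7, or in 6 without Ahcy. For all 5606 annotated features of that depth the shares were 24.5% and 22.9%, so an interval on one side of 1 was common in these libraries. The middle 95% of those features had ratios between 0.792 and 1.31, and 20 of the 21 genes lay inside that range. The exception was Slc19a1.

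**Figure D2:**
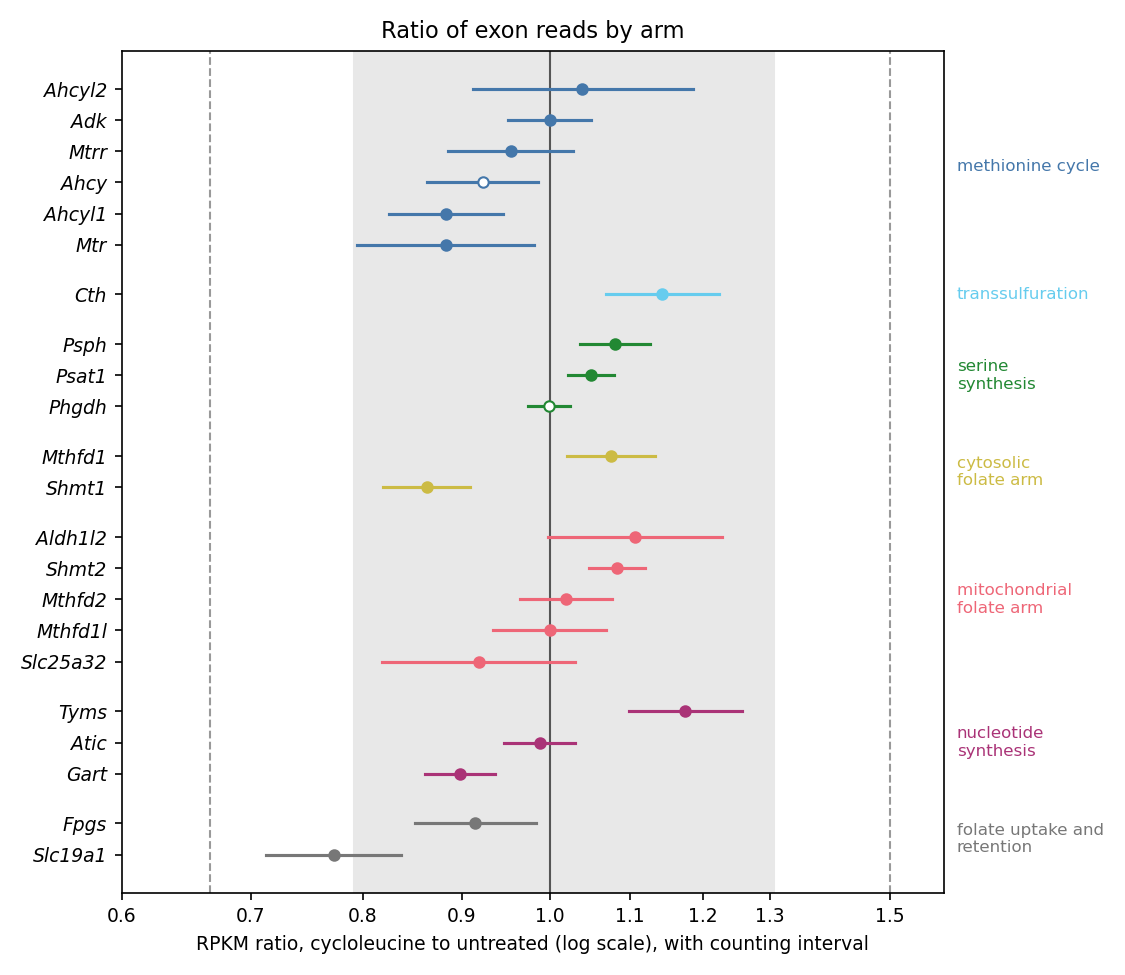
Ratio of cycloleucine to untreated RPKM (log scale) of the 22 measured genes by arm, with 95% counting intervals. Open circles are Ahcy and Phgdh, under 50% of whose exon reads were uniquely placed, the grey band is the middle 95% of annotated features with at least 1000 reads (0.792 to 1.31), and dashed lines mark 1.5-fold. Slc19a1, at 0.773, is the 1 gene outside the band.

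Slc19a1 had 1265 untreated and 1151 cycloleucine exon reads, although the second library was larger. Its RPKM was 10.0 and 7.76, a ratio of 0.773 (0.713 to 0.837) or 1.29-fold lower. It lies on the plus strand of chromosome 10, from 77032241 to 77061002 in mm10. Of 5606 annotated features with at least 1000 reads it had the 98th lowest ratio. Fpgs, the other gene of folate uptake and retention, had 1446 and 1558 exon reads and a ratio of 0.915 (0.851 to 0.983). Fpgs thus lay below 1 as Slc19a1 did, but inside the middle 95% of features of that depth. An interval wholly below 1 was found in 22.9% of those features.

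The cytosolic and mitochondrial arms of folate metabolism were close to each other and to 1. The median ratio was 0.963 over the 2 measured cytosolic genes and 1.02 over the 5 mitochondrial ones, with ranges of 0.863 to 1.08 and 0.918 to 1.11 that overlapped. Summed over all members of an arm, the RPKM was 55.8 and 54.2 in the cytosolic and 153 and 161 in the mitochondrial arm. Within the cytosolic arm the 2 genes lay on opposite sides. Mthfd1 had 2532 and 3206 exon reads and a ratio of 1.08 (1.02 to 1.13), and Shmt1 had 2897 and 2945 and a ratio of 0.863 (0.820 to 0.909).

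Of the mitochondrial genes, Shmt2 had 6061 and 7731 exon reads and a ratio of 1.08 (1.05 to 1.12). Aldh1l2 stood at 1.11 (0.997 to 1.23), Mthfd2 at 1.02 (0.965 to 1.08), Mthfd1l at 0.9995 (0.934 to 1.07) and Slc25a32 at 0.918 (0.819 to 1.03). All but that of Shmt2 had an interval that included 1. Aldh1l2 shares 1056 exon bases with D10Wsu102e on the opposite strand, which had 775 and 859 exon reads, and whether strand was used in counting was not given in the sources used here.

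Among the paralogue pairs with both genes measured, the 2 serine hydroxymethyltransferase genes, whose promoters are printed above, diverged most. Shmt2 RNA per length was 3.52 times that of Shmt1 in the untreated library and 4.42 times in the cycloleucine library. The ratio of their reads was thus 1.25 times as high (1.18 to 1.33, by a normal approximation from the 4 counts), a value that no scaling of the libraries can move. From uniquely placed reads it was 1.25. The pairs were picked after the values were seen. For Ahcyl1 relative to Ahcyl2 the value was 0.850 (0.735 to 0.983). For Mthfd2 relative to Mthfd1 the corresponding value was 0.948 (0.879 to 1.02), and for Mthfd1l relative to Mthfd1 it was 0.930 (0.854 to 1.01), both with intervals that included 1. Shmt1 shares 184 exon bases with Smcr8 on the opposite strand (1465 and 1993 exon reads), and Shmt2 shares 32 with Ndufa4l2 (30 and 5).

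Serine synthesis genes stayed near 1, with a median ratio of 1.05. Psph had 4063 and 5171 exon reads and a ratio of 1.08 (1.04 to 1.13), and Psat1 had 9278 and 11470 and a ratio of 1.05 (1.02 to 1.08). Phgdh had 10926 and 12853 exon reads and a ratio of 0.999 (0.974 to 1.02). Psph shares 452 exon bases with Cct6a on the opposite strand, which had 7021 and 7357 reads. The pathway that held the highest levels of the list thus had ratios close to 1.

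In the methionine cycle 5 of 6 measured genes lay below 1 (50.9% of all measured features lay above 1), and the median ratio was 0.938. From uniquely placed reads 4 of 6 lay below 1, with Adk on the other side, and the median log2 ratio was -0.04 against -0.09. Without Ahcy, whose reads are shared with a copy, 4 of 5 lay below 1. Ahcyl1 had 1682 and 1750 exon reads and a ratio of 0.883 (0.826 to 0.945). Mtr had 696 and 724 and a ratio of 0.883 (0.795 to 0.981). Mtrr stood at 0.954 (0.885 to 1.03), Adk at 0.9997 (0.951 to 1.05) and Ahcyl2 at 1.04 (0.912 to 1.19). Cth, the 1 measured transsulfuration gene, had a ratio of 1.14 (1.07 to 1.22).

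Ahcy cannot be read from this table alone. Its exon reads were 1740 and 1891, a ratio of 0.923 (0.864 to 0.985), but just 146 and 164 of them, 8.39% and 8.67%, were uniquely placed. Of its exon-exon reads, 353 and 367 in all, 0 were unique in either library. The gene Gm4737 is 99.7% identical to the Ahcy transcript over 2083 bases (GENCODE M21). It was listed with 4379 and 5507 exon reads, of which 368 and 493 were unique. With the reads of its 2 annotated copies added, Ahcy had 6133 and 7436 reads and a ratio of 1.03 (0.995 to 1.06), on the other side of 1. The direction of the Ahcy ratio thus depends on which copy reads are assigned to. How reads matching several places were assigned was not given in the sources used here, so the level of 22.9 RPKM carries the same doubt. For Phgdh, with 28.7% and 27.5% unique reads and 9 annotated processed pseudogenes, adding the 4 copies found in the table gave 0.995 (0.970 to 1.02).

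The 3 nucleotide synthesis genes diverged, with a median ratio of 0.988. Tyms had 1486 and 2057 exon reads and the highest ratio of the list, 1.18 (1.10 to 1.26), and lies at chr5:30058202-30073617 on the minus strand. Gart had 4311 and 4560 exon reads and a ratio of 0.898 (0.861 to 0.936), and Atic 4047 and 4708 and a ratio of 0.988 (0.947 to 1.03). Gart shares 1014 exon bases with the antisense gene Gm15964, which had 3 and 3 reads. Tyms lay above 1 and Gart below, while Atic was not separated from 1, with a log2 ratio of 0.03 from unique reads that also put the median of the 3 at 0.03.

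Reads across exon-exon junctions come from spliced RNA and give a second readout, here from uniquely placed reads scaled by unique gene reads. Of 21 genes with at least 100 such reads over both libraries, 0 were at least 1.5-fold higher, against 3.63% of 6448 features, and 1 was at least 1.5-fold lower, against 2.31%. That gene was again Slc19a1, with 149 and 102 junction reads and a ratio of 0.595 (0.458 to 0.771). It ranked 52nd from the lowest of the 6448. With all junction reads in place of unique ones its ratio was 0.577. Both readouts of the carrier gene thus lay on the lower side, the junction value below the exon value of 0.773. Junction and exon reads are not independent, since each junction read is also an exon read.

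For Tyms the junction ratio was 1.27 (1.12 to 1.43), from 454 and 661 reads, on the same side as its exon ratio. Shmt2 had 1792 and 2352 junction reads and a ratio of 1.14 (1.07 to 1.21), and Shmt1 had 725 and 784 and a ratio of 0.940 (0.849 to 1.04). Mthfd1 stood at 1.16 (1.07 to 1.25) and Cth at 1.05 (0.949 to 1.17). Ahcyl2 was the highest, at 1.42 (1.05 to 1.95), but from just 69 and 113 reads. In 17 of the 21 genes the junction ratio and the exon ratio lay on the same side of 1. The share of all features for which this holds was not computed. Junction reads are among the exon reads, and the ratios are scaled differently, by unique and by all gene reads. The count is therefore no separate check of the exon ratios.

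**Figure D3:**
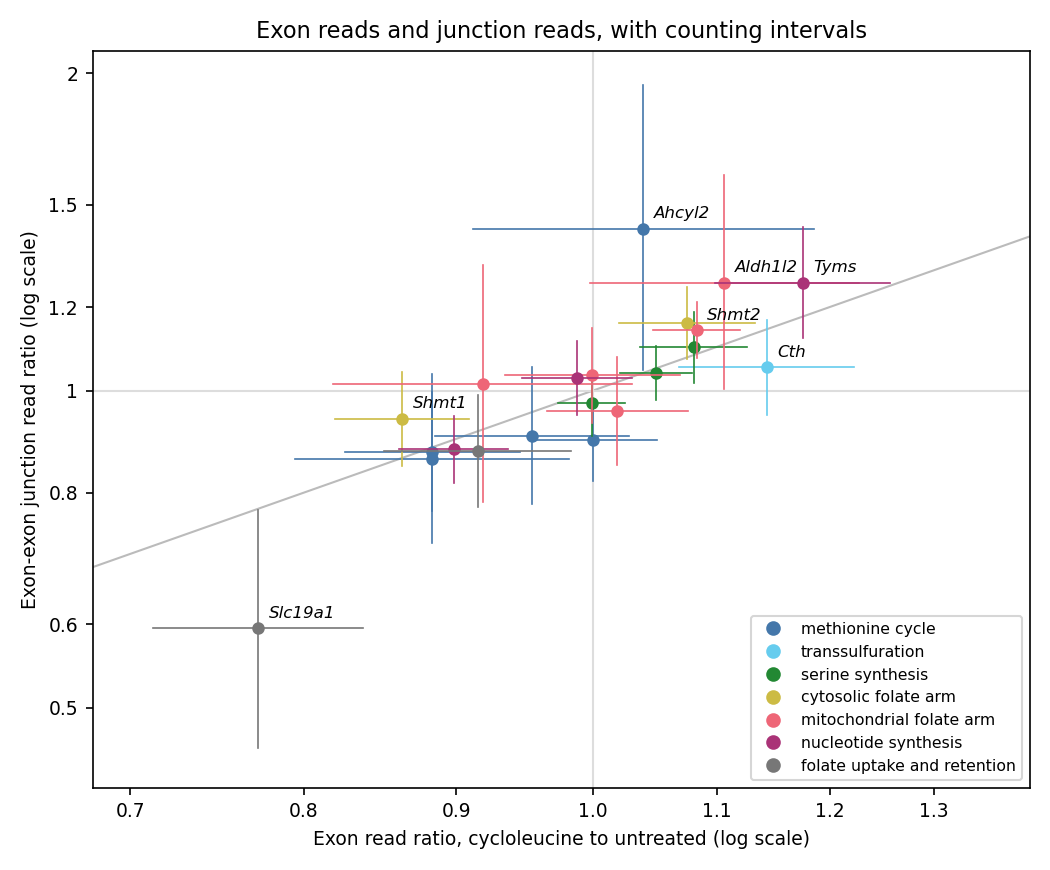
Junction read ratio against exon read ratio (both cycloleucine to untreated, log scales) of 21 genes, coloured by arm, with 95% counting intervals as lines. The grey diagonal marks equal ratios. Slc19a1, at 0.773 and 0.595, lies lowest on both axes, and Tyms, at 1.18 and 1.27, farthest right.

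Intron reads come mostly from RNA not yet spliced, and their ratio to exon reads compares the 2 pools within a gene. All 22 measured genes passed the minimum of 100 intron reads and 200 exon reads, summed over the libraries. The log2 change of the ratio was above 0 in 11 and below 0 in 11. By the 1.5-fold rule 0 were higher, against 4.92% of 6584 features, and 1 was lower, against 3.36%. The middle 95% of those features ran from -0.65 to 0.71, and 21 of the 22 genes lay inside.

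Cth was the exception. It had 213 and 171 intron reads while its exon reads were 1498 and 2017, a log2 change of -0.75 (-1.05 to -0.44). Of the 6584 features it ranked 87th from the lowest. From uniquely placed reads the change was -0.78. The gene (chr3:157894248-157925077 in mm10, minus strand) thus had more exon and fewer intron reads in the larger library.

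In all, the interval lay wholly below 0 in 6 genes and wholly above in 1. The share of all features with such an interval was not computed, so these counts have nothing to be compared with. The change was -0.50 (-0.99 to -0.0054) in Slc25a32, with 85 and 65 intron reads. It was -0.37 (-0.60 to -0.14) in Mthfd1, with 334 and 327 intron reads, and -0.44 (-0.77 to -0.12) in Aldh1l2, with 195 and 187. For Shmt2 it was -0.24 (-0.45 to -0.015), and for Phgdh -0.28 (-0.46 to -0.09). All 6 measured methionine cycle genes lay above 0, from 0.013 in Mtrr to 0.24 in Ahcyl2, each with an interval that included 0. The median of all 6584 features was 0.02, above the value of Mtrr. Ahcy, at 0.05, is among the 6, and its exon reads are shared with a copy. Slc19a1 had 985 and 1056 intron reads and a change of 0.24 (0.07 to 0.41), but from its 308 and 257 unique intron reads the value was -0.13, so the direction depends on reads that match several places. Adk had 3442 and 4231 intron reads, of which just 1583 and 1945 were uniquely placed. From all reads, introns took 53.9% of its gene reads in the untreated library, where the median of the 22 genes was 10.6%.

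**Figure D4:**
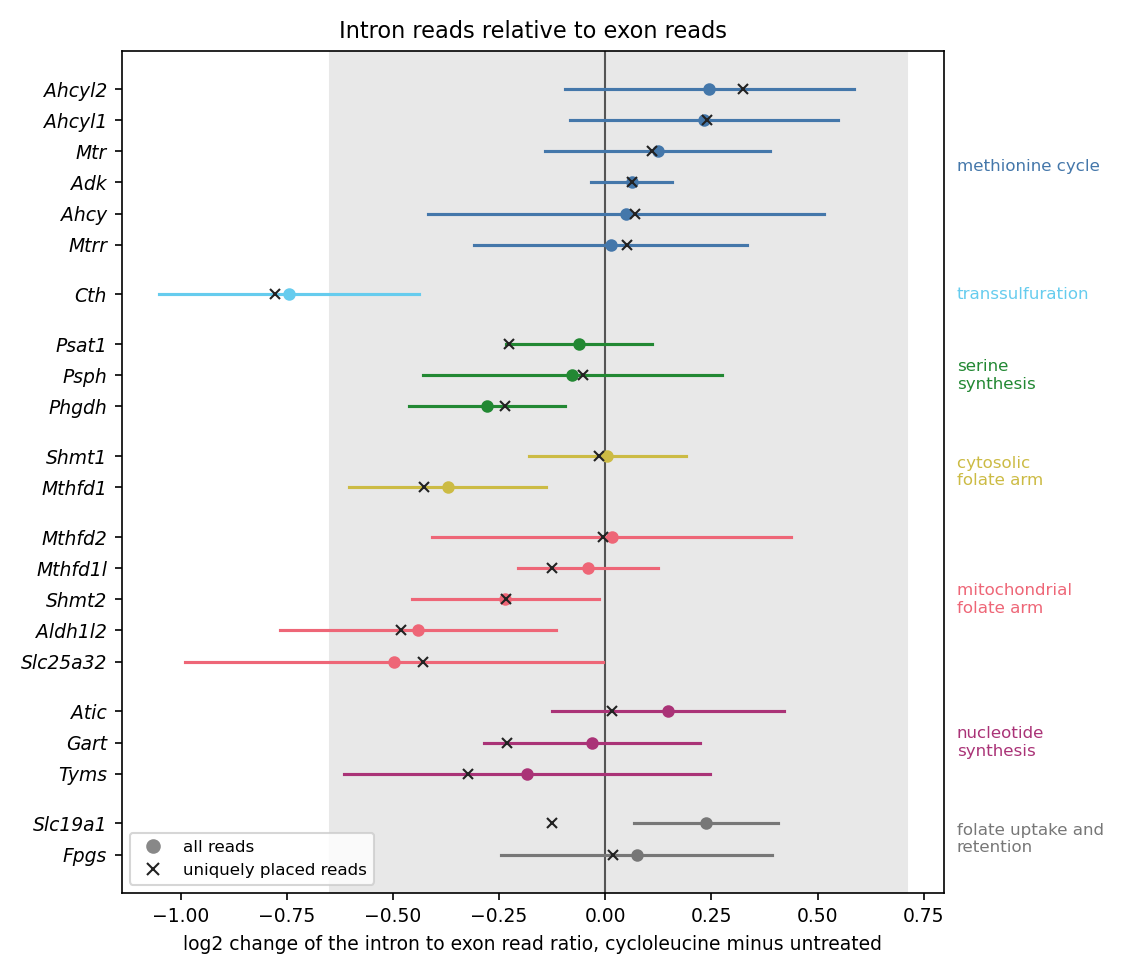
Change in log2 of the intron to exon read ratio (cycloleucine minus untreated) of 22 genes by arm, from all reads (circles, with 95% intervals) and from uniquely placed reads (crosses). The grey band is the middle 95% of 6584 features (-0.65 to 0.71). Cth, at -0.75, is outside it, and Slc19a1 lies on opposite sides of 0 by kind of read.

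Genes that work beside the listed enzymes were taken from 6 lists of neighbouring steps. Of the 44 measured genes of these lists, 0 were at least 1.5-fold higher, against the 3.28% above, and 0 were lower, against 2.72%. Abcd4, Mmaa and Tk1 lay just inside the limit. For the counts by side of 1 in these lists, 50.9% of all measured features lay above 1. In the list of thymidylate and dUTP enzymes, around Tyms, 6 of 7 measured genes lay below 1 and the median ratio was 0.862. The salvage kinase gene Tk1 had 561 and 442 exon reads and a ratio of 0.669 (0.589 to 0.759), just inside 1.5-fold, from reads of which just 155 and 117 were unique, and its mitochondrial relative Tk2 stood at 0.756 (0.582 to 0.981). At the other end were Rrm1, a ribonucleotide reductase subunit gene, at 0.981 and the thymidylate kinase gene Dtymk at 1.12. Tyms, at 1.18, thus stood apart in direction from most of its neighbours, while Tk1 lay below the range of the 22 members.

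In purine synthesis, around Gart and Atic, all 10 genes were measured, 4 above and 6 below 1, with a median ratio of 0.967. Adsl, which makes the substrate of Atic and also AMP, had 2995 and 2826 exon reads and a ratio of 0.801 (0.761 to 0.844), and Adss stood at 0.835 (0.778 to 0.897). The highest were Gmps at 1.09 and Impdh2 at 1.05, both of the branch to GMP, with 891 and 1189 of the 5773 and 7165 Impdh2 reads unique. In the cobalamin list, which supplies the cofactor of Mtr, 6 of 8 measured genes lay above 1 and the median was 1.03. Mmaa, at 0.667 (98 and 77 reads), and Mmab, at 0.709 (218 and 182), both of the mitochondrial branch that does not serve Mtr, were the lowest. Mut, of that same branch, lay on the other side, at 1.15 (391 and 529 reads). Abcd4, at 1.49 (65 and 114 reads, 0.948 and 1.41 RPKM), and Lmbrd1, at 1.16, which together release cobalamin from lysosomes, were the highest. Abcd4 and Mmaa reached an RPKM of 1 in just the library where each was higher, so the limit for being measured favours their places at the ends.

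Of the glycine cleavage and folate partners, 5 of 12 were measured, 4 of them below 1, with Gcsh at 1.01, Dld at 0.983, Mtfmt at 0.932 and Ggh at 0.803. The folate importer gene Slc46a1 had 148 and 169 exon reads and a ratio of 0.969 (0.773 to 1.22). Ggh, which removes the glutamate tails that Fpgs adds, had just 110 and 104 reads (0.608 to 1.06). The glycine cleavage system thus had 2 expressed components, Gcsh and Dld, while Amt, like Gldc, was low, at 14 and 22 reads. In serine and glycine transport 5 of 8 measured genes lay above 1, with Sfxn3 at 1.27 and Slc38a2 at 1.25 highest and Srr at 0.893 and Sfxn1 at 0.938 lowest. Sfxn1, which carries serine into mitochondria for Shmt2, stood at 48.7 and 45.6 RPKM. In the list of cysteine and glutathione genes around Cth, 5 of 6 measured lay above 1. They were led by the cystine importer gene Slc7a11 at 1.22 and Gclc at 1.17, with Gclm at 1.01 and Ethe1 at 0.977 lowest, and Cth itself at 1.14 lay within that range.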

How the data were processed

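Total RNA depleted of rRNA was sequenced on Ion Proton, as the labels' protocols state. The deposited table gives read counts per feature (total and uniquely placed, over genes, exons, junctions and introns) and RPKM values that the authors computed from them, per the file headers. Coordinates are of mm10, per the submitters' processing notes. Aligner, counting method, annotation and strand use were not given in the sources used here. Another unit, the authors' signed fold, deposited per the file headers, equalled the RPKM ratio in 19487 of 19487 features above 0 in both libraries and was not used further.

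A feature counted as measured when its RPKM reached 1 in a library and its reads summed to 50 or more. The table had 0 columns of other samples. Ratios are of plain RPKM, without a pseudocount. With 1 library per group no test was made, and the precision is that of the reads (27127865 and 31951946 in genes). Starts were shifted by 1 to count from 1. Copies were sought with BLAST 2.17.0+ (at least 95% identity over 200 bases) and overlaps in GENCODE M21. Intron to exon ratios had 0.5 added to each count. Named genes were all 31 members and the 2 highest and 2 lowest measured genes of each companion list. Others, such as Mat2a, Amt, Mut, Slc46a1, Gm4737 and Mthfsl, were named after their values were seen. The result of 1 marker gene is not reported here. Members and lists were chosen with earlier results of these data known. Calculations used Python 3.11.15 and scipy 1.17.1, and the ratio, its interval and the size rule were tested on simulated data. Alternatives were other pseudocounts, read types, scalings, filters and fold limits.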

Additional observations from a re-analysis of the deposited data

How the results depend on the processing

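No paired analysis was possible because just 1 library represents each group. Of 112 alternative values of the measured genes' ratios, 111 stayed within their counting interval, and the exception was Ahcy with its copies added, at 0.04 in log2 against -0.12. Scalings by trimmed mean and by median of ratios shifted every value by under 0.01. Without a filter on low values, the median of the cytosolic folate arm was 0.20 against -0.05, and 2 genes, Aldh1l1 (3 and 7 reads) and Mthfd2l (1 and 2), were at least 1.5-fold higher, from reads near the floor. At 1.2-fold, 1 gene, Slc19a1, was lower. Of 22 intron to exon changes, 21 stayed within their interval with unique reads, and that of Slc19a1 was -0.13. The sums with copies, the counts by side of 1 from unique reads or without Ahcy, the removal of poorly unique genes from medians, the pair values and the second junction count were chosen after seeing the data. Depth limits the 9 near-silent genes to reads, without a ratio.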

Other observations

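Genes too low for a ratio in the report held a few values worth setting down, chosen after they were seen. Cdo1, the cysteine dioxygenase that sends cysteine towards taurine, had 2 and 22 exon reads (untreated and cycloleucine), all uniquely placed, a ratio of 9.34 (counting interval 2.30 to 81.9). Its intron reads were 30 and 33. Both levels, 0.0482 and 0.450 RPKM, lay under an RPKM of 1. Sds, the serine dehydratase gene of liver, had 1 and 8 exon reads, of which 0 and 4 were unique.

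Some near-silent members had more intron than exon reads. Gldc had 37 and 62 intron reads beside 2 and 2 exon reads, Mthfd2l 24 and 43 beside 1 and 2, and Aldh1l1 26 and 48 beside 3 and 7. Bhmt had 2 and 19 intron reads. Whether these come from the genes' own transcripts was not tested.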
